A study of Gallus gallus with 9 samples.

Results

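Forkhead, T-box and homeobox genes outside the HOX clusters encode DNA-binding proteins that pattern embryonic tissues, and 60 of them were measured in PGC and GSC fractions of the chicken embryonic gonad. The members were all genes whose platform symbol names a FOX, TBX, NKX, IRX, DLX, MSX, MEIS or PBX factor or one of the SIX-family, apart from FOXL2, which the choice left out. They were 23 forkhead genes, 12 T-box genes and 25 homeobox genes, out of 13009 genes in all. The study compared 3 PGC arrays with 6 GSC arrays. PGC commonly stands for primordial germ cells, while the labels leave GSC and WL unexplained. Both fractions were parted by magnetic-activated cell sorting (MACS) from gonads of WL embryos at 6.5 days, and no genotype, treatment or sex is given. The antigen used for the sort and any pooling of embryos are not stated in the labels, so the p-values measure only the spread between preparations, which may be technical.

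Forkhead factors carry a winged-helix domain, T-box factors a domain first found in Brachyury, and the homeobox factors a homeodomain. MEIS, PBX and IRX proteins belong to the TALE class of homeodomain proteins, and MEIS and PBX proteins bind DNA together with HOX proteins. NKX, MSX, IRX, DLX and SIX-family proteins act in regional patterning of the neural tube, limb, sense organs and pharyngeal arches. The FOXO factors differ in that insulin and growth factor signals, through the kinase AKT, move them out of the nucleus.

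Every level below is a log2 expression value of 1 probe set, the one of each gene with the highest mean over the 9 arrays. Levels of different genes are not compared, because each probe set binds with its own strength. The 95th percentile of 57 reporter probe sets, made for sequences foreign to the chicken, was 2.88, and is called the reporter mark. Array medians lay between 3.03 and 3.12. The sort was checked on DDX4, a germ cell RNA helicase, which averaged 9.09 ± 0.63 in PGC and 4.59 ± 0.19 in GSC (SD, n = 3 and 6), and on LHX9, a homeobox gene of gonadal somatic cells, which averaged 6.01 ± 0.68 in PGC and 8.19 ± 0.13 in GSC. PGC replicate 3 stood apart, with correlations of 0.956 to 0.969 to the GSC arrays over all probe sets, against 0.930 to 0.950 for PGC replicates 1 and 2. The list means of 9 germ cell markers, all of them higher in PGC, were 8.09, 7.96 and 7.24 in PGC replicates 1, 2 and 3, against 4.18 to 4.49 over the GSC arrays. The list means of 11 gonadal somatic markers, all of them lower, were 4.50, 5.11 and 6.07 in the same PGC arrays, against 6.98 to 7.24 over the GSC arrays.

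Of the 60 members, 7 were higher and 13 lower in PGC, and 40 did not pass (limma, adjusted p under 0.05 over all genes). In all 13009 genes the share called was 42.0%, with 22.5% higher and 19.5% lower, against 33.3%, 11.7% and 21.7% of the members. By family, the 23 forkhead genes gave 9 lower (39.1%) and 0 higher, with 1 at an unadjusted p under 0.05 in the higher direction, FOXA2. The 25 homeobox genes gave 7 higher (28.0%) and 4 lower (16.0%). The 12 T-box genes gave 0 calls, with 2 lower at an unadjusted p under 0.05, TBX15 and TBX18.

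The median log2 difference, PGC minus GSC, was -0.18 for the forkhead genes, -0.04 for the T-box genes and -0.03 for the homeobox genes, against -0.02 over all genes. Many members were dim. The mean over the 9 arrays lay below the reporter mark in 38 of 60 members (63.3%), against 24.3% of all genes. Of these 38 dim members 3 were called, and of the 22 brighter ones 17 were called, where the shares over all genes were 16.8% of dim and 50.1% of brighter genes. The arrays of the fractions did not overlap in 17 of 60 members, a share of 28.3%, against 36.4% of all genes.

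**Figure D1:**
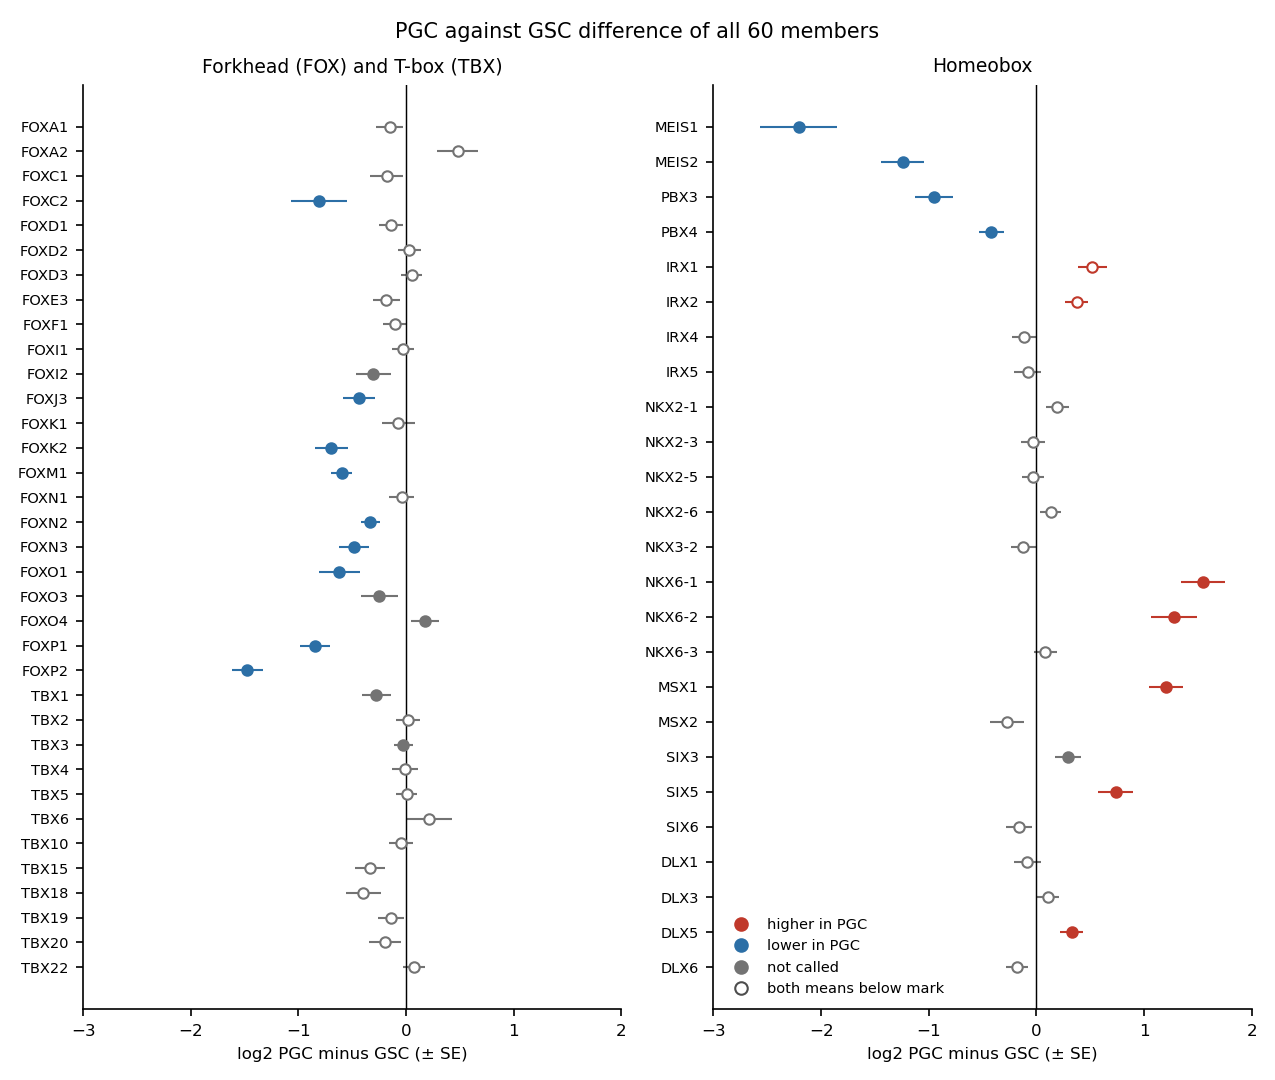
Log2 difference, PGC minus GSC, of all 60 members with its standard error (horizontal axis), forkhead and T-box genes in the left panel and homeobox genes in the right one. Red points were called higher and blue points lower in PGC, grey points were not called, and open points mark genes whose means lay below the reporter mark in both fractions. All called forkhead genes lie left of 0, and the homeobox genes lie on both sides.

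The MEIS and PBX genes were all lower in PGC, 4 of 4. MEIS1, a HOX cofactor, measured 2.77, 2.80 and 4.63 in PGC replicates 1 to 3, and 5.36, 5.55 and 5.95 as the lowest, median and highest GSC value. PGC replicates 1 and 2 lay below the reporter mark and replicate 3 between them and the GSC arrays, and no array overlapped. The difference was -2.21 ± 0.36 (log2, SE, limma adjusted p = 5.081e-04), or at least 4.43-fold lower with the dim PGC arrays set at the mark.

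MEIS2, the related HOX cofactor, measured 4.41, 4.15 and 4.92 in PGC and 5.41, 5.69 and 6.09 in GSC (lowest, median, highest). It was 2.37-fold lower without overlap (-1.24 ± 0.20, limma adjusted p = 4.469e-04), and its other probe set was also called lower, with a PGC mean below the mark, at 2.72 ± 0.08 in PGC and 3.23 ± 0.12 in GSC (SD). PBX3, a partner of both MEIS and HOX proteins, measured 5.93, 6.09 and 6.72 in PGC and 7.04, 7.12 and 7.48 in GSC, a 1.93-fold lower level (limma adjusted p = 0.0011). Again PGC replicate 3 was the PGC array nearest the GSC arrays. PBX4 measured 5.83, 5.42 and 5.62 in PGC and 5.85, 6.08 and 6.18 in GSC, 1.34-fold lower and just short of overlap (limma adjusted p = 0.0137). Its call was lost without PGC replicate 2 (-0.32), and its other 2 probe sets (-0.26 and -0.59) were not called.

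Among 5 other TALE genes, 1 was higher and 2 lower, where 22.5% of all genes were higher and 19.5% lower. TGIF1, a repressor that acts with SMAD proteins, was lower by 1.43 ± 0.19 on the log2 scale (SE, limma adjusted p = 1.495e-04). MKX was also lower, TGIF2 was higher, and PKNOX1 and PKNOX2 did not pass. MKX (-0.68) lay below the mark on all 9 arrays. TGIF2 (0.46) overlapped between the fractions, and without PGC replicate 1 both MKX (-0.48) and TGIF2 (0.38) lost their call. TGIF1 measured 5.79, 5.80 and 6.68 in PGC and 7.31, 7.48 and 7.76 in GSC. As with PBX3 and MEIS1, PGC replicate 3 was the one nearest GSC. In these bulk fractions, fewer cells of a type and less RNA per cell cannot be told apart.

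The forkhead genes that were lower belong to several groups of the family, and most of the differences were below 2-fold. FOXP2, a repressor best known for its role in vocal learning in songbirds and in human speech, measured 4.09, 3.64 and 4.33 in PGC and 5.40, 5.44 and 5.67 in GSC (lowest, median, highest). All PGC arrays lay more than 1 log2 unit below every GSC array, and the level was 2.78-fold lower (-1.47 ± 0.14 SE, limma adjusted p = 1.808e-05). FOXP1, its close relative and partner in dimers, measured 6.48, 6.48 and 6.41 in PGC and 7.03, 7.32 and 7.58 in GSC. It was 1.79-fold lower, and on this probe set, unlike those of MEIS1 or PBX3, the 3 PGC arrays had nearly the same value (SD 0.04). A second FOXP1 probe set, with a wider PGC spread (SD 0.38), was lower by 1.48 ± 0.16 (SE), and the other 2 were dim and not called.

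FOXK2, a forkhead factor that represses autophagy genes in mouse muscle cells, measured 6.10, 6.08 and 6.72 in PGC and 6.87, 6.93 and 7.28 in GSC, 1.62-fold lower without overlap (limma adjusted p = 0.0036). Of its 5 probe sets 4 were lower, by 0.59 to 0.99 on the log2 scale, and the fifth measured 4.71 ± 0.53 in PGC and 4.49 ± 0.35 in GSC (SD) and was not called. FOXM1, which drives genes of the G2 and M phases in dividing cells, measured 6.29, 6.45 and 6.28 in PGC and 6.86, 6.89 and 7.09 in GSC. Its PGC arrays were as close together as its GSC arrays (SD 0.10 each), and it was 1.51-fold lower (limma adjusted p = 4.847e-04).

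FOXN2 measured 8.25, 8.21 and 8.32 in PGC and 8.52, 8.58 and 8.71 in GSC. The difference of 1.26-fold was larger than the spread of either fraction on this probe set (limma adjusted p = 0.0097). A second FOXN2 probe set, also called lower, had a wider PGC spread, at 7.95 ± 0.43 in PGC and 8.46 ± 0.13 in GSC (SD). FOXN3, a repressor linked to cell cycle checkpoints, measured 7.0, 7.21 and 6.79 in PGC and 7.26, 7.43 and 7.82 in GSC, 1.40-fold lower (limma adjusted p = 0.0155), a call lost without PGC replicate 3 (-0.38). That array had the lowest FOXN3 value of all 9. A second FOXN3 probe set, below the mark in PGC at 2.20 ± 0.17 and at 3.44 ± 0.27 in GSC (SD), had the larger fitted difference (-1.24 ± 0.15 SE).

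The remaining called forkhead genes overlapped between the fractions. FOXC2, a factor of mesenchyme and lymphatic vessels, measured 2.51, 2.53 and 3.59 in PGC and 3.38, 3.52 and 4.24 in GSC. PGC replicate 3 lay within the GSC range while the other PGC arrays lay below the mark, and the level was at least 1.48-fold lower (-0.81 ± 0.26 SE, limma adjusted p = 0.0255). The call was lost with values floored at the mark (-0.57), and without PGC replicate 1 (-0.62), PGC replicate 2 (-0.64) or GSC replicate 2 (-0.75). FOXF1, its neighbour in the RefSeq annotation of assembly GRCg7b, lay below the mark on all 9 arrays, with 1.46 ± 0.19 in PGC and 1.56 ± 0.11 in GSC (SD).

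FOXO1, a target of AKT that maintains spermatogonial stem cells in the mouse, measured 3.37, 4.18 and 4.03 in PGC and 4.17, 4.48 and 4.79 in GSC. PGC replicate 1 was low and replicate 2 reached the lowest GSC array. The level was 1.54-fold lower (limma adjusted p = 0.0214), a call lost without PGC replicate 1 (-0.38). FOXJ3 averaged 3.08 ± 0.21 in PGC and 3.52 ± 0.23 in GSC (SD), near the mark, and its call (-0.44, limma adjusted p = 0.0337) was lost in 6 of the 9 fits that left out an array: PGC replicate 1 (-0.38) or 2 (-0.38), or GSC replicate 2 (-0.39), 3 (-0.39), 5 (-0.42) or 6 (-0.45).

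**Figure D2:**
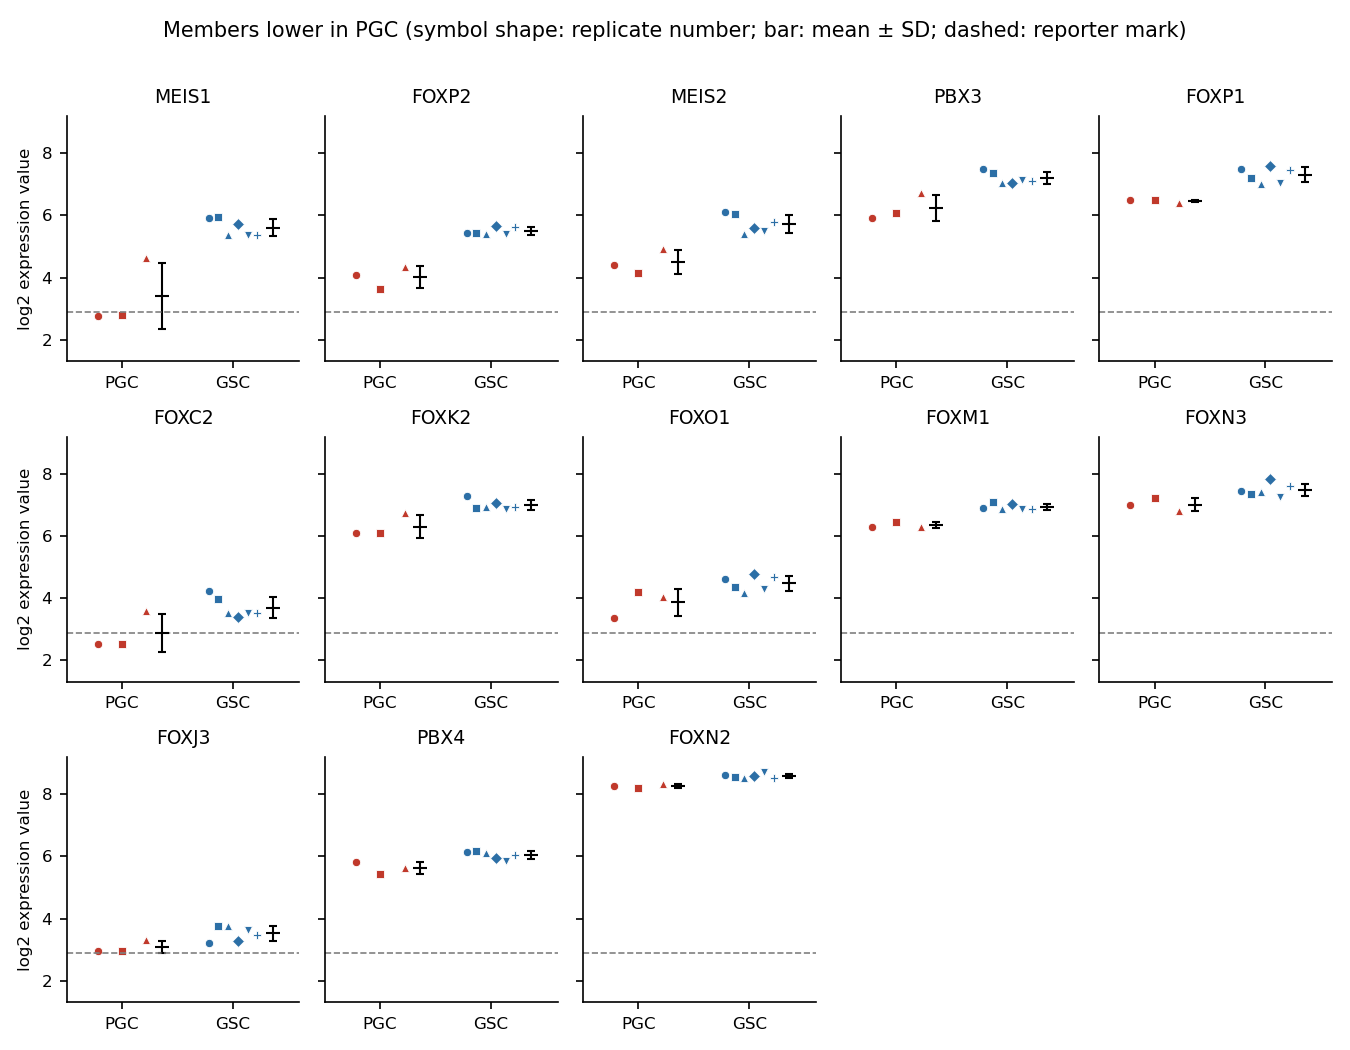
Log2 expression value (vertical axis) of the 13 members that were lower in PGC, with the 3 PGC arrays in red left of the 6 GSC arrays in blue. The symbol's shape gives the replicate number, the black bar the mean ± SD and the dashed line the reporter mark of 2.88. For MEIS1 and FOXC2 PGC replicate 3 lies well above the other PGC arrays, and for FOXP1 and FOXM1 the PGC arrays lie together.

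The FOXO genes FOXO3 and FOXO4 did not pass. FOXO3, which holds oocytes of primordial follicles dormant in the mouse, measured 5.56, 5.45 and 6.06 in PGC and 5.58, 5.92 and 6.34 in GSC, and the fractions overlapped (-0.25 ± 0.17 SE, limma adjusted p = 0.275). Without PGC replicate 3 it was called lower, at -0.43, as it was over the mean of its 3 probe sets (-0.28). Of those probe sets 1, below the mark in both fractions, was called lower by itself. FOXO4 averaged 6.25 ± 0.30 in PGC and 6.07 ± 0.09 in GSC (SD). Of 14 regulators of FOXO factors, chiefly in insulin signalling, 5 were lower and 2 higher. The shares over all genes were 19.5% lower and 22.5% higher. The kinase AKT1 was 2.11-fold lower, at 4.96, 5.37 and 4.79 in PGC and 5.98, 6.08 and 6.30 in GSC, and PIK3R1, a regulatory subunit of PI3 kinase, was 2.01-fold lower. The kinase SGK3 was 2.37-fold higher, at 7.76, 7.74 and 7.16 in PGC and 5.97, 6.35 and 6.47 in GSC, and the insulin receptor gene INSR was 1.82-fold higher (0.86 on the log2 scale, and 0.34 over the mean of its probe sets). Without PGC replicate 3 the number of higher regulators was 4.

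Of 14 genes described as FOXO targets, 3 were higher and 4 lower, with a median of -0.26. Over all genes 22.5% were higher and 19.5% lower, with a median of -0.02. PCK1, a gluconeogenic enzyme that HNF4A also controls in liver and kidney, measured 5.23, 6.58 and 6.03 in PGC, while no GSC array reached the mark, and was at least 8.35-fold higher (limma adjusted p = 1.250e-06). Beside it, 6 of 10 mesonephric tubule markers were higher and 2 lower in PGC, with list means of 5.44 to 6.01 over the PGC arrays and 4.04 to 4.50 over the GSC arrays, and 1 of the 10, LHX1, was below the mark on all 9 arrays. Without PGC replicate 1 or 2 or GSC replicate 1 or 6, 1 of these markers was lower. The part of such cells in the PCK1 difference was not tested. BCL6, a repressor, was 2.13-fold lower, SESN3, a stress-response gene, 1.85-fold lower (-0.89, and -0.45 over the mean of its probe sets) and KLF2, an endothelial factor, 1.66-fold lower. KLF2 overlapped, and its call was lost without PGC replicate 1 (-0.50) or 2 (-0.53) or GSC replicate 1 (-0.71), 2 (-0.73), 3 (-0.72) or 4 (-0.72), while without PGC replicate 3 it was -1.16. Without PGC replicate 1 or 2, the number of lower targets was 2.

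Another 12 forkhead genes, among them FOXA1, FOXD1, FOXD3, FOXF1 and FOXI1, did not pass, and FOXI2 was the only one of these whose mean reached the mark in a fraction. Without PGC replicate 3, FOXI2 (-0.47) and FOXC1 (-0.38), a mesenchymal factor, were called lower. FOXA2, an endoderm and floor plate factor, measured 2.77, 1.72 and 2.20 in PGC and 1.59, 1.72 and 2.02 in GSC, all below the mark. It did not pass (0.48 ± 0.19 SE, limma adjusted p = 0.0655), and without PGC replicate 2, its lowest PGC array, it was called at 0.73.

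Higher in PGC were homeobox genes of the NKX6, MSX, IRX, DLX and SIX-family groups. NKX6-1, known from pancreatic beta cells and motor neuron progenitors, measured 7.07, 6.46 and 6.24 in PGC and 4.59, 5.11 and 5.42 in GSC (lowest, median, highest). Every PGC array lay above every GSC array, and the level was 2.93-fold higher (1.55 ± 0.21 SE, limma adjusted p = 1.450e-04). NKX6-2, its paralogue in the neural tube, measured 3.93, 3.36 and 2.72 in PGC and 1.87, 2.07 and 2.23 in GSC. All 6 GSC arrays and PGC replicate 3 lay below the mark, so that the level was at least 1.37-fold higher with the GSC arrays set at the mark and the PGC values as measured, against a fitted difference of 1.28 ± 0.21 on the log2 scale. NKX6-3, of the same group, was below the mark on all 9 arrays and did not pass (0.08). The other 5 NKX genes, NKX2-1, NKX2-3, NKX2-5, NKX2-6 and NKX3-2, which include factors of the thyroid, lung and heart, were also below the mark on every array, and none passed, with differences between -0.12 and 0.19 on the log2 scale.

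MSX1, a homeobox target of BMP signals that with MSX2 promotes meiotic entry in the mouse fetal ovary, measured 6.08, 5.58 and 5.87 in PGC and 4.29, 4.64 and 4.98 in GSC. It was 2.30-fold higher without overlap (1.20 ± 0.16 SE, limma adjusted p = 1.232e-04), and PGC replicate 3 lay between the other PGC arrays. MSX2 measured 1.57, 1.37 and 2.19 in PGC and 1.88, 1.96 and 2.17 in GSC, all below the mark, and did not pass (-0.28). Without PGC replicate 3 it was called lower, at -0.51.

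The gene annotated as SIX5 measured 7.54, 7.33 and 6.74 in PGC and 6.27, 6.45 and 6.68 in GSC, 1.67-fold higher and just without overlap (0.74 ± 0.16 SE, limma adjusted p = 0.0036). Its other 2 probe sets were dim and not called, and over the mean of the 3 it lost its call (0.17). SIX6 lay below the mark on all 9 arrays. SIX3, a forebrain and eye factor, measured 4.26, 3.82 and 4.07 in PGC and 3.61, 3.77 and 3.96 in GSC, and did not pass (0.29 ± 0.12 SE, limma adjusted p = 0.0724). Without PGC replicate 2 it was called at 0.41.

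Of 6 EYA and DACH partners of the SIX-family proteins, 2 were higher and 1 lower, where 22.5% of all genes were higher and 19.5% lower. DACH2, a cofactor in the network of EYA and SIX-family proteins, measured 5.53, 5.27 and 4.13 in PGC and 3.66, 3.92 and 4.10 in GSC, 2.10-fold higher, with PGC replicate 3 just above the highest GSC array. DACH1 was 1.45-fold lower, at 7.08 ± 0.20 in PGC and 7.62 ± 0.08 in GSC (SD). EYA2 was called higher with a mean below the mark in both fractions, at 2.76 ± 0.26 in PGC and 1.76 ± 0.09 in GSC (SD), and lost its call with values floored at the mark (0.02), and EYA1, EYA3 and EYA4 did not pass. The Groucho family includes corepressors that homeodomain and forkhead proteins recruit. Of 4 of its genes, 2 were lower and 0 higher, against the same shares of all genes. TLE1 was 3.21-fold lower, at 3.42, 3.96 and 4.59 in PGC and 5.50, 5.66 and 5.91 in GSC, and TLE4 was 1.89-fold lower. TLE3 (0.08) and AES (-0.22) did not pass.

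IRX1 and IRX2, Iroquois genes that lie close together in the GRCg7b annotation, were both called higher with means below the mark in both fractions, so that no fold is given. IRX1 measured 2.76, 2.58 and 2.99 in PGC and 1.95, 2.29 and 2.46 in GSC (0.52 ± 0.13 SE, limma adjusted p = 0.0085), and lost its call with values floored at the mark (0.04). IRX2 measured 2.35, 1.92 and 2.06 in PGC and 1.62, 1.75 and 1.82 in GSC (0.37 ± 0.11 SE, limma adjusted p = 0.0173), a call lost without PGC replicate 1 (0.25). Neither gene overlapped between the fractions. IRX4, the next gene of that cluster, did not pass (-0.11), nor did IRX5 of the other cluster (-0.08).

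DLX5, a factor of the limb ridge and pharyngeal arches, measured 3.51, 3.51 and 3.39 in PGC and 2.90, 3.14 and 3.33 in GSC, 1.25-fold higher (limma adjusted p = 0.0325). Its call was lost without PGC replicate 1 or 2 (0.31 each) or GSC replicate 2 (0.32), 5 (0.31) or 6 (0.33). Its neighbour DLX6 lay below the mark on all 9 arrays, as did DLX1 and DLX3, and none of these 3 passed. Without PGC replicate 3, DLX6 was called lower, at -0.28.

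**Figure D3:**
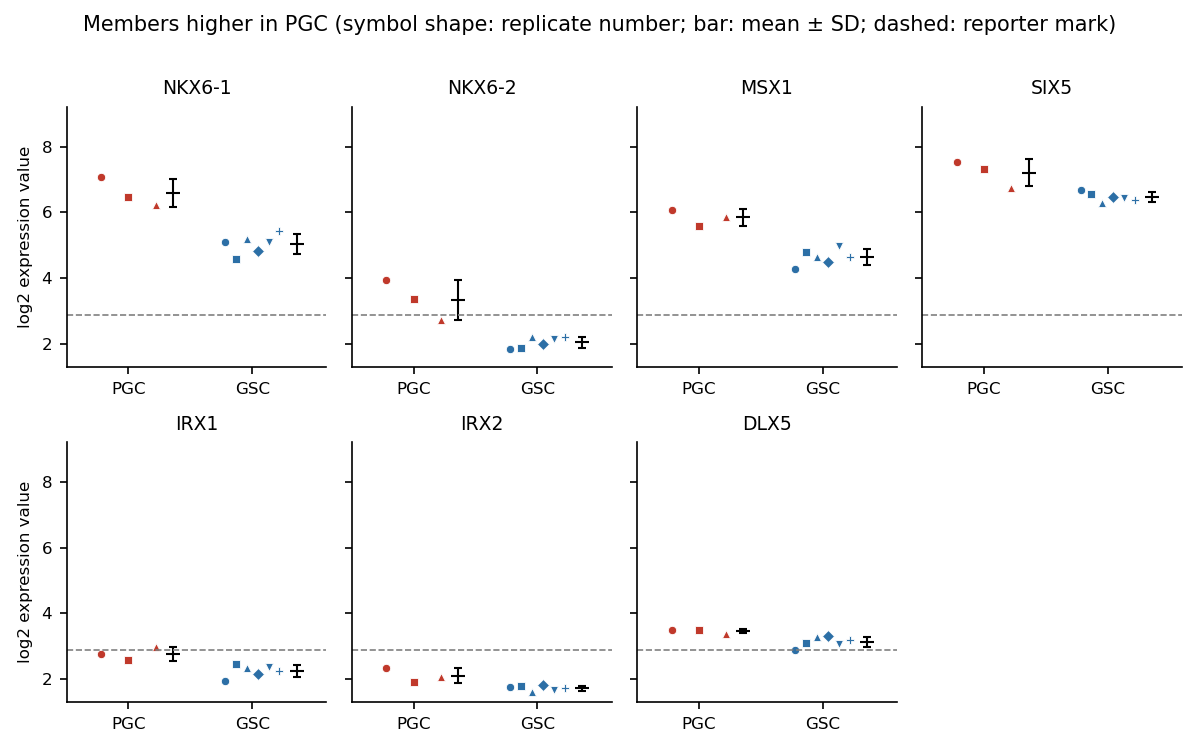
Log2 expression value (vertical axis) of the 7 members that were higher in PGC, with the 3 PGC arrays in red left of the 6 GSC arrays in blue. The symbol's shape gives the replicate number, the black bar the mean ± SD and the dashed line the reporter mark of 2.88. No PGC array overlaps a GSC array in any panel. NKX6-2 and IRX1 have points on both sides of the mark, and all points of IRX2 lie below it.

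The 7 higher members were set beside markers of other cell types. Of 6 neural and neural crest markers 1 was higher, ELAVL4, and 4 were lower in PGC, with list means of 4.96 to 5.60 over the PGC arrays and 5.23 to 5.37 over the GSC arrays. All 6 reached the mark on some array, and the number of lower ones was 2 without PGC replicate 1. Of the germ cell markers 9 of 9 were higher, and of the mesonephric tubule markers 6 of 10 were higher and 2, PAX2 (-0.62) and UMOD (-1.32), lower. The part of these cells in the NKX6, MSX1, SIX5, IRX and DLX5 differences was not tested. Beside the 13 lower members stood 11 of 11 gonadal somatic markers and 7 of 10 endothelial markers that were lower, the endothelial list means being 4.05, 4.87 and 5.32 in PGC replicates 1 to 3, against 5.57 to 6.10 in GSC. For comparison with all these marker counts, 19.5% of all genes were lower and 22.5% higher. Of 8 red blood cell markers 3 were lower, and of 6 leukocyte markers 3 were lower and 1 higher. Of 6 smooth muscle markers 1 was lower. Without PGC replicate 3 the lower counts for red blood cells, leukocytes and smooth muscle were 8, 5 and 4. The part of these cells in the lower members was not tested either.

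T-box genes were mostly dim. The mean of 10 of the 12 members lay below the mark in both fractions, among them the limb and heart factors TBX2, TBX4, TBX5 and TBX20. TBX18, a factor of urogenital mesenchyme in the mouse, measured 1.38, 1.90 and 1.87 in PGC and 1.90, 2.09 and 2.46 in GSC and did not pass (-0.40 ± 0.16 SE, limma adjusted p = 0.0695), and without PGC replicate 3 it was called at -0.47. TBX1, a pharyngeal factor, averaged 2.69 ± 0.16 in PGC and 2.97 ± 0.20 in GSC (SD). TBX3 had the same value of 2.91 on 7 arrays, the 3 PGC and 4 of the GSC arrays. Of all 60 members 6 had a value repeated on at least 4 arrays, against 4.5% of all genes.

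Of 4 T-box genes outside the members, read for comparison, 2 were higher and 0 lower, where 22.5% of all genes were higher and 19.5% lower. EOMES, a T-box factor of early mesoderm and endoderm, measured 5.24, 4.95 and 4.59 in PGC, against 2.42, 2.74 and 2.84 in GSC, all 6 below the mark, and was at least 4.13-fold higher (2.25 ± 0.15 SE, limma adjusted p = 1.125e-06). TBXT, or Brachyury, measured 3.49, 3.36 and 3.19 in PGC, against 2.24, 2.35 and 2.69 in GSC, and was at least 1.38-fold higher (limma adjusted p = 1.661e-04). The fractions overlapped in neither gene. TBR1 (-0.07) and MGA (0.35 ± 0.14 SE, limma adjusted p = 0.0610) did not pass.

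Of 18 motile cilium genes, 5 were higher, 1 was lower and 12 did not pass, where 22.5% of all genes were higher and 19.5% lower. Most are described as targets of the forkhead factor FOXJ1, which is not analysed here. The list also holds the transcription factors RFX2 and RFX3. DNAI1 and RSPH9, below the mark in all 6 GSC arrays, were at least 1.76-fold and 1.65-fold higher, and DNALI1, also below it in PGC replicate 3, at least 1.20-fold. TEKT2 was 2.71-fold lower (-1.44, and -0.73 over the mean of its probe sets), at 3.07, 3.26 and 4.47 in PGC and 4.93, 5.04 and 5.14 in GSC. Without PGC replicate 1, 3 of the list were higher, and without PGC replicate 3, 2 were lower.

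The called members differed in how far PGC replicate 3 stood from the other PGC arrays. On a scale from the mean of PGC replicates 1 and 2, at 0%, to the GSC mean, at 100%, it stood at 92.1% for FOXC2, 71.7% for SIX5, 69.9% for FOXK2, 65.3% for MEIS1 and 59.6% for PBX3. For FOXP1 (-8.8%), FOXM1 (-16.4%), MSX1 (-3.1%), PBX4 (-0.95%), IRX1 (-78.8%) and FOXN3 (-83.1%) it stood no nearer to GSC than the other PGC arrays did on average. The median was 35.9% for the 13 lower members, against 39.2% for all genes called lower, and 30.7% for the 7 higher members, against 30.3% for all genes called higher. PGC replicate 3 was the PGC array nearest the GSC mean in 8 of the 13 lower members (61.5%), against 65.8% of all genes called lower. The PGC spread exceeded the GSC spread in 16 of the 20 called members and in 8708 of all 13009 genes, and the standard errors pool both fractions.

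**Figure D4:**
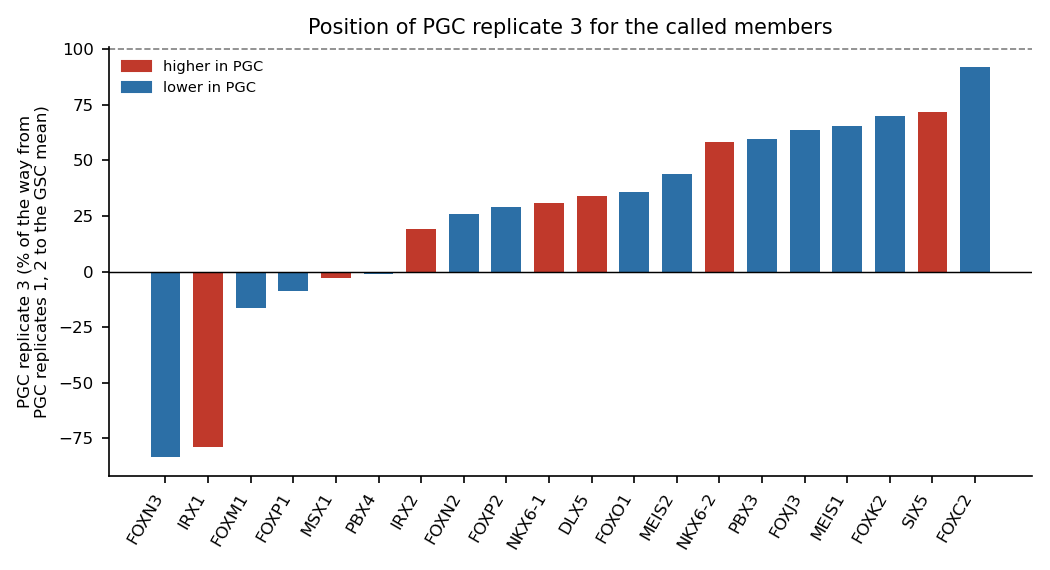
Position of PGC replicate 3 for each of the 20 called members, as a percentage of the way from the mean of PGC replicates 1 and 2 (0) to the GSC mean (100, dashed line), with members higher in PGC in red and lower ones in blue. The bars run from -83.1% for FOXN3 to 92.1% for FOXC2, and 6 of the 20 lie below 0.

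More than 1 probe set was present for 22 of the 60 members, of which 10 were called. Adjusted over all probe sets (limma), no other probe set of these 10 genes was called the other way. FOXN2 was lower in 2 of its 4 probe sets, and another that reached the mark (-0.49, with a PGC SD of 0.53) was not called. FOXJ3 was lower in 1 of 2 (-0.19 in the other). The second DLX5 probe set, at 3.00 ± 0.51 in PGC and 2.45 ± 0.18 in GSC (SD), was not called.

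**Figure D5:**
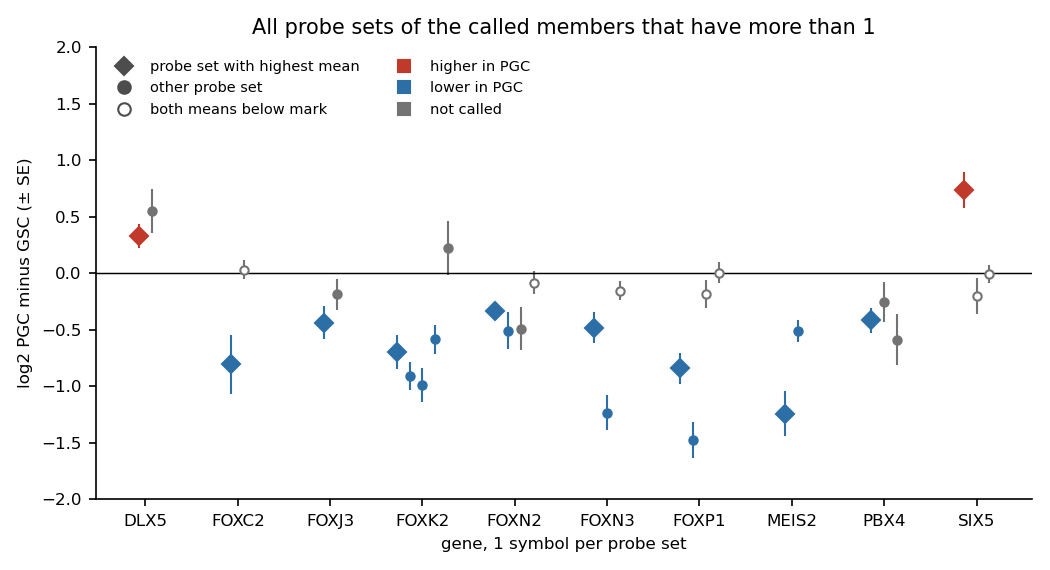
Log2 difference, PGC minus GSC, with its standard error (vertical axis) for every probe set of the 10 called members that have more than 1. Diamonds mark the probe set with the highest mean, red was called higher, blue lower and grey not called, and open symbols have means below the reporter mark in both fractions. FOXK2 has 4 of 5 probe sets below 0 and called, and 1 above 0 that was not called.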

How the data were processed

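RNA was read on Affymetrix GeneChip Chicken Genome Arrays, and the authors deposited log2 values for every probe set, which the submitters' processing notes credit to RMA. No RMA version was stated, and the log2 scale was read from the range of the values. RMA compresses dim values, which understates their fold changes. Of 38535 probe sets, 96 controls were left out. Symbols came from the platform annotation (1 symbol for 27168 probe sets, several for 177, none for 11094), and 59 of the 60 members matched a RefSeq gene of assembly GRCg7b, used for names and neighbours only. Each of 13009 genes was fitted on cell fraction over all 9 arrays in R 4.3.3 with limma 3.58.1 (lmFit, eBayes, two-sided), with Benjamini-Hochberg adjustment over all genes. A check on simulated data came first. It gave both fractions of a gene the same spread, so it did not cover the wider PGC spread of most genes. For folds given as at least, arrays of the dimmer fraction below the reporter mark were set at it, and the brighter fraction kept its measured mean. The number of arrays limits the precision. Members, lists and the rule for named genes (all called members, and up to 4 called genes of each partner list) were chosen with earlier results of these data known. There were 20 alternative settings.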

Additional observations from a re-analysis of the deposited data

Results flagged for a closer look

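TBX3 was flagged because 1 of its 6 GSC values stood far from the others: GSC replicate 1 measured 3.11, the next highest 2.91 and the lowest 2.85. The value of 2.91 was shared by 4 of the GSC arrays, so the gap was measured from tied values. Chance flags about 1 in 20 genes, and this was 1 of 26 genes examined. Whether that rate holds for tied values was not tested.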

How the results depend on the processing

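All 20 called members kept their direction in the 20 alternatives that gave them a value, and 9 kept their call in all of them: MEIS1, MEIS2, PBX3, FOXP1, FOXP2, FOXM1, MSX1, NKX6-1 and NKX6-2. The labels do not state whether the replicate number pairs the arrays. The deviations of same-numbered PGC and GSC arrays correlated at 0.18, -0.34 and 0.11. Those of arrays with unlike numbers ran from -0.36 to 0.48, so these values cannot show or exclude a pairing. With the replicate number as a block over replicates 1 to 3, 4 members were higher and 6 lower, with 3 forkhead genes lower and 4 homeobox genes higher. In that fit 1845 of all genes were higher and 1287 lower, and 9 partner genes were higher (15 in the full fit). With GSC replicates 1 to 3 only, 3 members, all homeobox genes, were higher and 8 lower (4 forkhead), with 1863 and 1531 of all genes, and with GSC replicates 4 to 6 only 7 members were lower (4 forkhead). These settings use fewer arrays. With 1 array weight per fraction, 6 members were higher and 9 lower (5 forkhead), with 2402 and 1974 of all genes. In that fit, which lets the fractions differ in spread, FOXC2, FOXJ3, FOXN3, FOXO1 and DLX5 lost their call (limma adjusted p = 0.0517 to 0.1163). Trend and robust moderation called 1 forkhead gene higher (FOXA2) and 1 T-box gene lower (TBX18), which quantile normalization also called (1). The cause was not tested. Leaving out 1 array gave 5 to 8 members higher and 10 to 18 lower. Over all genes it gave 2298 to 3321 higher and 1914 to 2983 lower. Without PGC replicate 3, 18 members were lower, and the counts over all genes were highest, at 3321 and 2983. By family, leaving out 1 array gave 6 to 11 forkhead genes lower and 0 to 1 higher (1 without PGC replicate 2). It gave 0 to 1 T-box genes lower (1 without PGC replicate 3), and 5 to 7 homeobox genes higher. The TBX3 log2 fold change (-0.0247), which was not called, turned to 0.0109 without GSC replicate 1 and was -0.0405 without GSC replicate 3. Over the mean of a gene's probe sets SIX5 (0.17), PBX4 (-0.42) and FOXJ3 (-0.31) lost their call, FOXO3 (-0.28) gained one, and FOXC2 was -0.39 and RSPH9 0.57. With values of both fractions floored at the mark, IRX1 (0.04), FOXC2 (-0.57) and EYA2 (0.02) lost their call, and NKX6-2 was 0.51, TBXT 0.47, DNAI1 0.81, RSPH9 0.72 and DNALI1 0.36. Values below the mark limit what can be said of the dim members.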
